A study of Homo sapiens with 16 samples.

Results

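Binding at 6 genes that give epithelial cells their shape and hold them together, VIL1, CDH17, EPCAM, CDH1, KRT8 and KRT18, was followed from S phase into M phase in LoVo, an established line of human colon adenocarcinoma cells. The members were all deposited chromatin immunoprecipitation sequencing (ChIP-seq) peaks that overlapped 5 fixed windows of the hg18 genome by at least 1 bp. The windows were chr2:218940000-219060000 for VIL1, chr8:95150000-95350000 for CDH17, chr2:47400000-47520000 for EPCAM, chr16:67280000-67480000 for CDH1 and chr12:51540000-51680000 for the neighbouring genes KRT8 and KRT18. They covered 780 kb and held 204 of the 146596 peaks in 12 lists, 129 of them from S phase and 75 from M phase. Of these, 33 lay in the window of VIL1, 25 in that of CDH17, 25 in that of EPCAM, 38 in that of CDH1 and 83 in the keratin window.

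The 12 lists came from ChIP of 3 transcription factors (HNF4A, KLF5 and MYC), of RAD21 and CTCF, and of histone H3 as a chromatin control, with 1 library for each target in each phase. S-phase cells had been blocked in 2 mM thymidine for 12 h, released for 8 h and blocked again for 12 h, which stops them early in DNA replication. M-phase cells had been blocked in 2 mM thymidine for 12 h and then kept for 8 h in 200 ng/ml nocodazole, which prevents spindle assembly. Each precipitation used 5 µg of antibody, and 4 IgG libraries (rabbit and goat, each in S and M phase) served as controls for peak calling. An siRNA against RAD21 appears in the design text of the series, but no label of these samples carries it. No target had a replicate, so differences between the phases have no replicate error to be judged by, and no p-value was computed. Intervals are 95% intervals that cover counting error only. The lists hold no expression values, so they do not show whether the 6 genes were transcribed.

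CDH1 encodes E-cadherin, the calcium-dependent adhesion protein of the adherens junction, CDH17 encodes an intestinal cadherin that lacks the catenin-binding tail, and EPCAM encodes a homotypic adhesion protein of epithelial membranes. VIL1 encodes villin, which bundles actin in the microvilli of the intestinal brush border. KRT8 and KRT18 encode the partner keratins of simple epithelium, which assemble together into intermediate filaments. HNF4A is a nuclear receptor that maintains the differentiated enterocyte, KLF5 a zinc-finger factor of proliferating crypt cells, and MYC a growth-promoting factor that binds E-boxes. RAD21 belongs to cohesin, the ring-shaped complex that keeps sister chromatids joined and shapes chromatin loops. CTCF binds DNA through zinc fingers and marks places where cohesin is often found. Most sequence-specific factors are known to leave much of the condensed chromosome in mitosis, and the phases compared here show which peaks at these genes were listed again.

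The windows also hold other genes, and no hg18 gene annotation was used, so peaks are given by position and none is placed at a gene start. RefSeq supplied a promoter sequence for 1 of the 6 genes, KRT8. VIL1, CDH17, EPCAM, CDH1 and KRT18 were not matched. The sequence is shown because the keratin window held the most peaks, including the strongest M-phase KLF5 peak of any window. It is the 250 bases before 1 annotated start of KRT8, at GRCh38.p14 chr12:52926470-52926719 on the minus strand, with the letters that match a GC-rich motif of KLF proteins (CCCCNCCC, found on the opposite strand) in capitals.
KRT8 promoter: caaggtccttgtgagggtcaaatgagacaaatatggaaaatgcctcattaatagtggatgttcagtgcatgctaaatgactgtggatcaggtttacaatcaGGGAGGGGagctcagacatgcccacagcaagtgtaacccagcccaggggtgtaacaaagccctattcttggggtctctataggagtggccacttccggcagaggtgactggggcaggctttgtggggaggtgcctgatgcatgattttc

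The match began at base 102 from the 5′ end, position -149 from the start. On either strand, 36.0% of the 35116 promoters in the table hold this motif (12654 promoters). The letters of the MYC E-box CACGTG were not in this stretch (6.34% of promoters hold them), nor were those of the E-box CAGGTG that the SNAI and ZEB repressors bind (17.5%), those of the HNF4A site CAAAGTCCA (0.325%) or the CTCF core motif (2.02%). How these bases lie relative to the hg18 peaks was not determined.

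The ChIP libraries held between 7362169 filtered tags (KLF5 in M phase) and 16813394 (HNF4A in M phase). Relative to S phase, the M-phase libraries were 1.38 times as deep for HNF4A, 0.712 times for KLF5, 1.65 times for MYC, 2.19 times in the case of RAD21 and 1.89 times in that of CTCF. The deposited FDR, obtained by exchanging ChIP and control, was 100% for 78.8% of M-phase HNF4A and 77.3% of M-phase MYC peaks. At the 6 genes it was 100% for 10 of 15 M-phase HNF4A peaks and 5 of 5 M-phase MYC peaks, and none of those HNF4A peaks passed an FDR of 5%. For M-phase KLF5 the labels carry NA as the peak number, while the M-phase rabbit IgG carries 2118, the length of the KLF5 list. Which library that list describes therefore rests on its name. This applies to every M-phase KLF5 value here.

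HNF4A and MYC had far fewer peaks at these genes in M phase than in S phase, KLF5 and CTCF somewhat fewer, and RAD21 nearly as many. Over their whole lists the counts went from 15437 to 2413 for HNF4A, 11941 to 1974 for MYC, 5928 to 2118 for KLF5, 28474 to 24391 for CTCF and 27122 to 22966 for RAD21. HNF4A had 36 S-phase peaks (7 in the VIL1 window, 5 for CDH17, 5 for EPCAM, 10 for CDH1 and 9 for the keratins) and 15 in M phase (4, 4, 1, 2 and 4). MYC had 26 (7, 1, 3, 3 and 12) and 5 (1, 0, 1, 1 and 2). KLF5 had 13 S-phase peaks (3, 2, 1, 1 and 6) and 10 M-phase peaks, of which 9 lay in the keratin window, 1 at EPCAM and none at VIL1, CDH17 or CDH1. The keratin window was the only window with more M-phase than S-phase KLF5 peaks. RAD21 had 27 S-phase peaks (3, 3, 4, 5 and 12) against 26 in M phase (3, 5, 3, 5 and 10). The counts of CTCF were 24 (4, 3, 3, 6 and 8) and 19 (1, 2, 3, 5 and 8), with the difference mostly at VIL1. Histone H3, the chromatin control, had 3 S-phase peaks, all in the keratin window, and none in M phase.

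**Figure D1:**
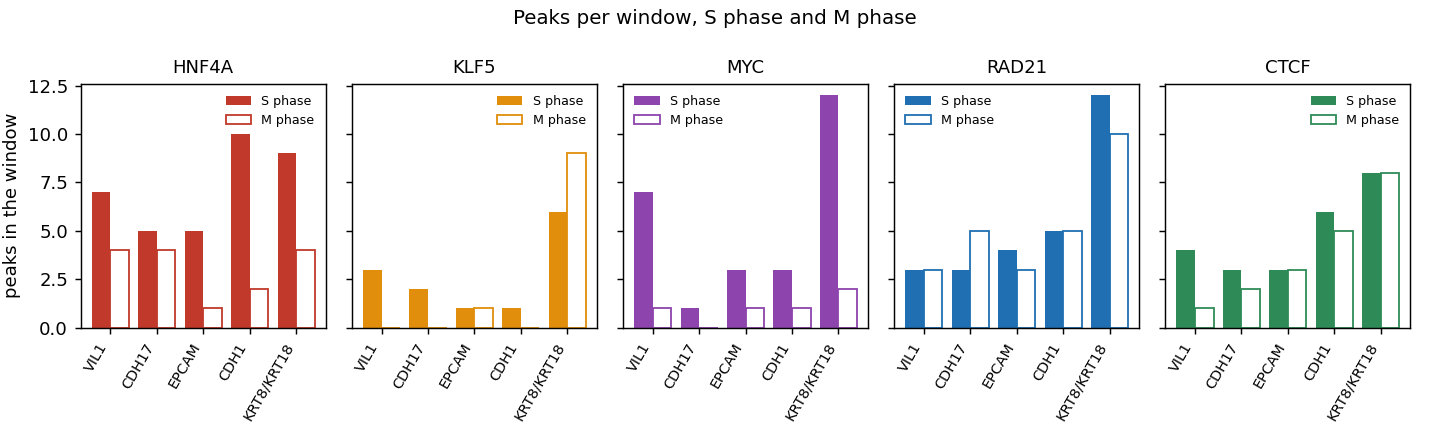
Number of peaks (vertical axis) in each of the 5 windows in S phase (filled bars) and M phase (open bars), 1 panel per protein. MYC had 12 S-phase and 2 M-phase peaks in the keratin window, while KLF5 had 6 and 9 there.

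Peaks of all 5 proteins were denser in the windows than over the genome as a whole, with higher ratios for the factors than for RAD21 and CTCF. In S phase HNF4A had 4.62 peaks per 100 kb in the windows and 0.561 per 100 kb of the effective genome, a ratio of 8.22. The ratio was 7.73 for KLF5, 7.68 for MYC, 3.51 for RAD21, 2.97 for CTCF and 3.21 for H3. In M phase HNF4A had 1.92 peaks per 100 kb against 0.0877, a ratio of 21.9, and KLF5 1.28 against 0.0770, a ratio of 16.6, while MYC had a ratio of 8.93, RAD21 3.99 and CTCF 2.75. The M-phase KLF5 density came mostly from the keratin window, with 6.43 peaks per 100 kb there, 0.833 at EPCAM and 0 at VIL1, CDH17 and CDH1. Among the windows, the keratins had 33.6 S-phase peaks of the 5 proteins per 100 kb, VIL1 20.0, EPCAM 13.3, CDH1 12.5 and CDH17 7.0. The effective genome includes regions without genes, and no gene-matched background was used.

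**Figure D2:**
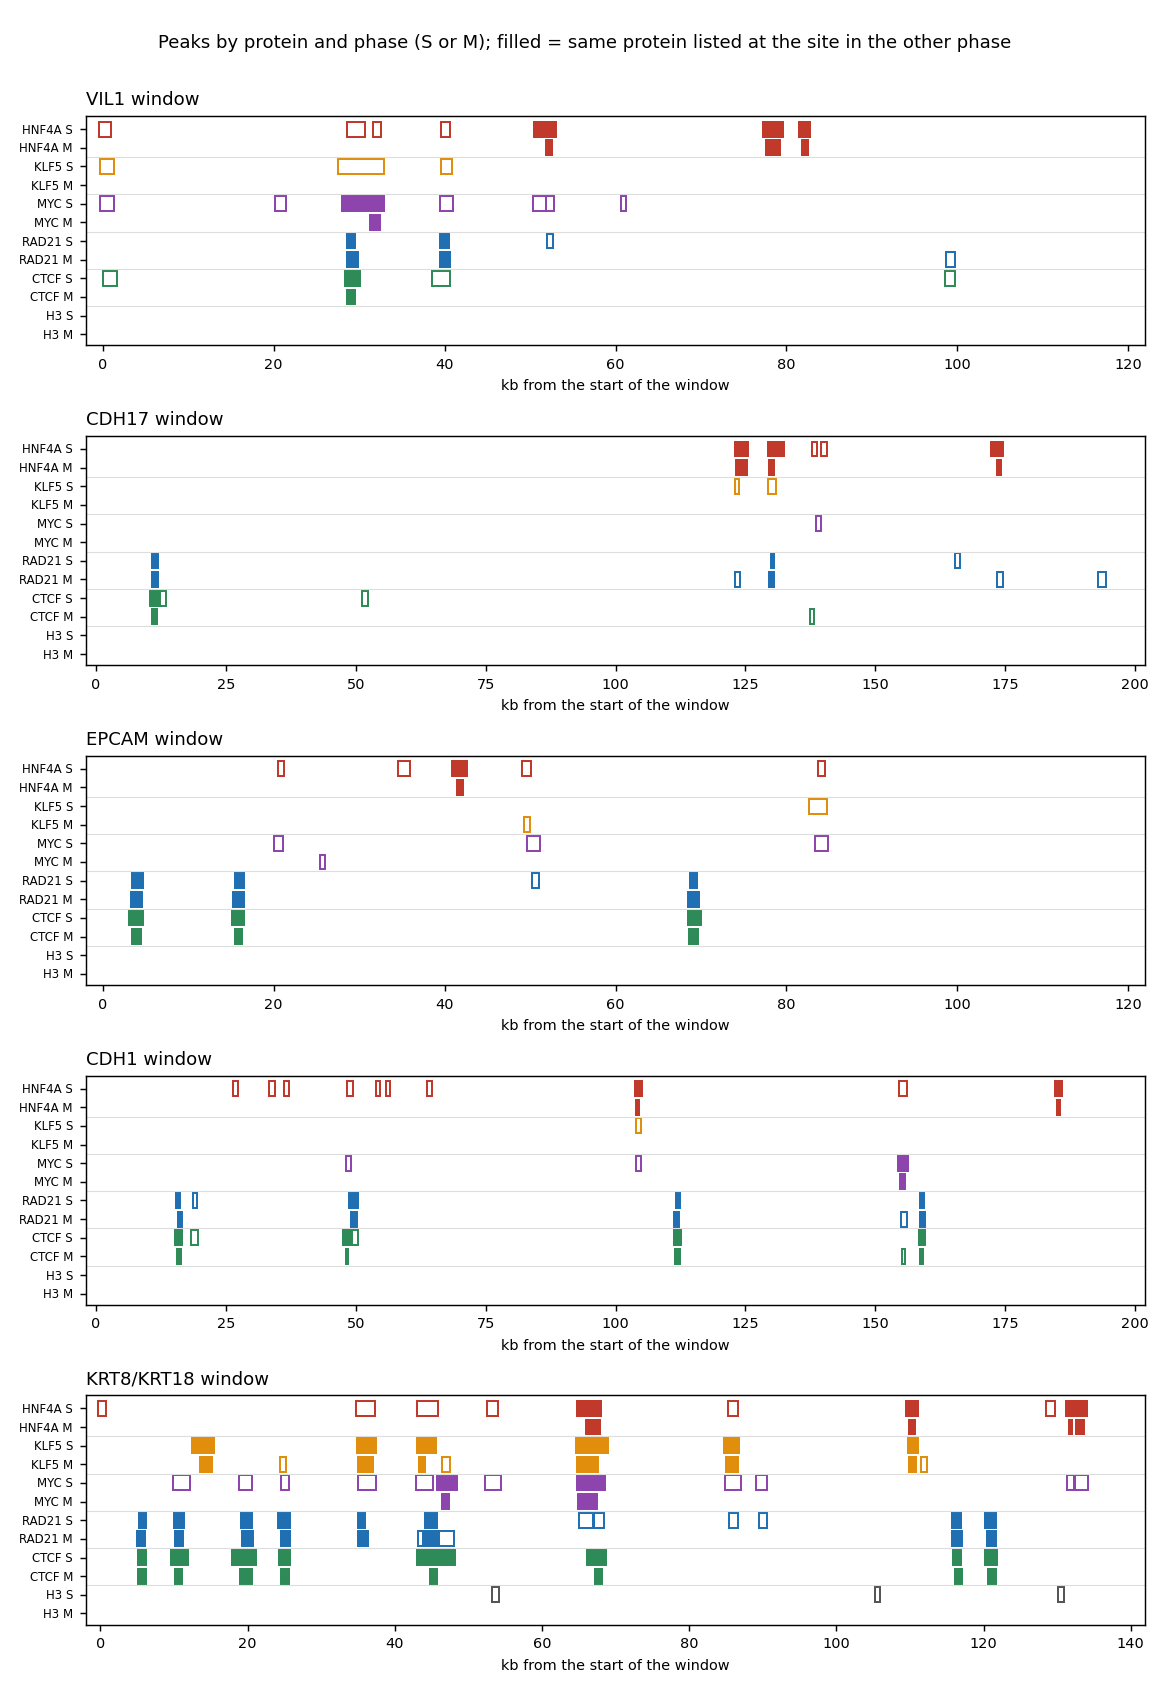
Peaks of each protein and phase (rows) along each window (horizontal axis, kb from the window's start), drawn to scale. Filled boxes have a peak of the same protein in the other phase and open boxes have none. In the keratin window all 6 S-phase KLF5 peaks are filled, and in the VIL1 window none of the 3 is.

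In the keratin window all 5 proteins were stacked on the same DNA at 2 stretches in S phase, and part of both stacks was listed again in M phase. Other stretches there held fewer proteins, and some of them had no M-phase peak. The stack with the most tags of the 5 windows, chr12:51604682-51609036, held 686 tags in 6 peaks of all 5 proteins. HNF4A (chr12:51604744-51608032) had 227 tags there in S phase, which is 18.6 tags per 1000000 library tags (abbreviated CPM), and 68 in M phase (4.04 CPM). KLF5 (chr12:51604682-51609036) had 167 S-phase tags, 16.1 CPM, at rank 57 of its list by score, against 72 in M phase, 9.78 CPM. Its M-phase peak, chr12:51604745-51607675, ranked 15 of 2118 with an FDR of 0.00%, the best rank of any M-phase KLF5 peak in the windows. MYC had 107 tags and then 52 (11.5 and 3.39 CPM), and CTCF 114 and 46 (15.2 and 3.24 CPM). RAD21 had S-phase peaks of 40 and 31 tags and no M-phase peak. This was therefore a site where HNF4A, KLF5, MYC and CTCF were listed in both phases and cohesin in S phase alone. The M-phase listings of HNF4A and MYC were weak, with FDRs of 100%. The HNF4A peak had 3.19-fold enrichment at rank 2093 of 2413, and the MYC peak 3.92-fold at rank 1488 of 1974. The M-phase CTCF peak had an FDR of 3.88%.

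The second 5-protein stack of the keratin window, chr12:51582927-51588458, held 543 tags and differed from the first in M phase, when RAD21 was listed and HNF4A was not. HNF4A had 89 tags in S phase and KLF5 115, of which KLF5 was listed again with 14 tags (1.90 against 11.1 CPM). MYC had S-phase peaks of 47 and 67 tags, and the latter was listed again with 25. S-phase CTCF covered 5077 bp with 174 tags, and the M-phase peak had 48. RAD21 had 1 S-phase peak of 51 tags but 3 M-phase peaks of 22, 103 and 72 tags, the peak of 103 tags being at the S-phase site (6.77 CPM in S phase and 6.24 in M phase). An additional M-phase KLF5 peak of 22 tags, chr12:51586388-51587572 with an FDR of 3.08%, overlapped no S-phase KLF5 peak.

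Every S-phase KLF5 peak in the keratin window had an M-phase counterpart. Besides the stacks described, these were chr12:51552430-51555488 (117 S-phase and 34 M-phase tags), chr12:51574934-51577479 (101 and 42), chr12:51624751-51626838 (72 and 34) and chr12:51649801-51651081 (46 and 25). Of the 6 sites, 5 ranked in the strongest 10% of the S-phase KLF5 list. The other M-phase KLF5 peaks of the window, chr12:51564388-51565250 with 14 tags and chr12:51651488-51652347 with 15, overlapped no S-phase KLF5 peak. In all, 3 of the 9 M-phase KLF5 peaks here had an FDR under 5%.

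HNF4A was listed in both phases at a further pair of keratin sites. At chr12:51671186-51674081 it had 179 tags at 22.44-fold enrichment in S phase and M-phase peaks of 12 and 43 tags, and at chr12:51649433-51651071 it had 150 tags and then 39. These M-phase peaks had FDRs of 100%, 87.19% and 100%. The other 6 S-phase HNF4A peaks of the window, of 24 to 118 tags, had no M-phase peak. The strongest S-phase MYC peak of the window, chr12:51672356-51674193 with 90 tags at rank 533, overlapped the HNF4A peak of 179 tags and had no M-phase counterpart.

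A few CTCF and RAD21 sites of the keratin window ranked near the top of their lists, while others there were weak, down to the top 57.2% for CTCF and the top 99.7% for RAD21 in S phase. At chr12:51557927-51561097 CTCF had 375 S-phase tags (rank 16 of 28474) and 210 M-phase tags (rank 6 of 24391), or 49.9 and 14.8 CPM. RAD21 had 139 tags there in S phase (rank 37 of 27122) and 178 in M phase (rank 39). Despite its rank, the M-phase CTCF peak there had an FDR of 16.67%, the highest of the 19 M-phase CTCF peaks in the windows. A filter at an FDR of 5% therefore removes it. At chr12:51564159-51565772 RAD21 had 120 tags and then 182, the latter at 59.42-fold enrichment and rank 7 of 22966. CTCF had 184 and 80 at this site. Another site with both proteins, chr12:51660140-51661851, had 307 and 85 CTCF tags and 98 and 127 RAD21 tags. All 8 S-phase CTCF peaks of the window were listed again, and 8 of 12 RAD21 peaks were.

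S-phase peaks in the keratin window were wide and rich in tags, while their median fold enrichment compared with the other 4 windows differed by protein. S-phase HNF4A peaks had a median of 89.0 tags and 8.94-fold enrichment there, against 28.0 tags and 9.59-fold in the other 4 windows. The HNF4A peak of 227 tags had 12.72-fold enrichment, whereas one of 162 tags at VIL1 had 52.69-fold. S-phase MYC peaks had a median width of 2225 bp and 5.09-fold enrichment, against 1378 bp and 8.46-fold in the other windows. S-phase KLF5 peaks had medians of 108 tags and 2582 bp, against 28.0 tags and 1330 bp over the list, and 10.6-fold enrichment against 6.97-fold in the other windows. S-phase CTCF peaks had 29.9-fold against 11.7-fold there, and RAD21 peaks 9.69-fold against 10.2-fold. Median fold was thus higher in the keratin window for KLF5 and CTCF and lower for MYC, HNF4A and RAD21. The 3 S-phase H3 peaks of all windows lay in this window, at chr12:51593235-51594163 (23 tags, FDR 3.94%), chr12:51645292-51645892 (15 tags) and chr12:51670120-51670991 (25 tags). The first overlapped an HNF4A and a MYC peak, the others no peak of the 5 proteins. Their part in the keratin peaks was not tested, nor was that of the copy number of this region. With peaks at H3 peaks left out, HNF4A in all windows had 12 of 35 kept peaks and MYC 4 of 25, in place of 12 of 36 and 4 of 26.

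At VIL1, HNF4A was listed at its strongest sites in both phases, though no M-phase peak passed an FDR of 5%. A broad stack of all 5 proteins had no KLF5 or HNF4A peak in M phase. The strongest HNF4A peak of the 5 windows, chr2:219017221-219019579, had 162 tags in S phase (13.3 CPM, rank 37 of 15437). M-phase HNF4A peaks of 20 and 34 tags overlapped it, 3.21 CPM together, with FDRs of 100% and 18.93%. At chr2:218990403-218993023 HNF4A had 137 S-phase tags at 38.56-fold enrichment and 44 M-phase tags (11.2 and 2.62 CPM). That M-phase peak, chr2:218991879-218992591, ranked 47 of 2413 with an FDR of 8.51%, the lowest of any M-phase HNF4A peak at the 6 genes. At chr2:219021498-219022716 HNF4A had 59 and 21 tags, the M-phase peak with an FDR of 100%. No other protein had a peak at the first or the last of these sites in either phase.

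The VIL1 stack at chr2:218967475-218972936 held 543 tags in S phase. KLF5 had 151 tags there over 5462 bp, at 13.36-fold enrichment and rank 33 of 5928, the strongest KLF5 peak of the windows. It had no M-phase counterpart. MYC also had 151 tags (rank 250 of 11941, its best in the windows) and 22 in M phase, 16.3 and 1.43 CPM. CTCF had 125 and 43 tags, RAD21 24 and 51, and HNF4A peaks of 66 and 26 tags in S phase alone. A second 5-protein stack, chr2:218978530-218980953, with 243 tags in S phase, was listed in M phase for RAD21 alone, with 50 tags and then 69. CTCF, with 98 tags in that stack, and the factors had no M-phase peak there. Another stack at the edge of the window, chr2:218939610-218941696, had HNF4A, KLF5, MYC and CTCF in S phase and nothing in M phase. RAD21 had 48 tags in M phase alone at chr2:219038708-219039770, where CTCF had 59 tags in S phase alone.

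At CDH17, 3 of 5 S-phase HNF4A peaks were listed again, and RAD21 peaks were listed at those 3 sites in M phase. The S-phase HNF4A density of this window was the lowest of the 5, at 2.50 peaks per 100 kb. HNF4A was listed in both phases at chr8:95279438-95282351 (133 tags, 41.06-fold and rank 186 in S phase, and 43 tags, rank 143, in M phase). It was listed again too at chr8:95272993-95275500 (128 tags, then peaks of 22 and 29) and at chr8:95322329-95324524 (100 and 28 tags). The M-phase HNF4A FDRs were 10.49% at the first site, 100% for both peaks at the second and 79.61% at the third. RAD21 was listed at each of these sites in M phase, with 21, 27 and 29 tags. In S phase it was listed at the first alone, with 9 tags. The 3 M-phase RAD21 peaks had FDRs of 6.03 to 11.35%, so none passed 5%. CTCF had no peak at these sites in either phase. KLF5 had 35 and 14 tags in S phase, both at HNF4A sites, and none in M phase, and the only MYC peak (17 tags) was not listed again. The strongest CTCF and RAD21 site, chr8:95160378-95162237, had 106 and 56 CTCF tags and 71 and 90 RAD21 tags in S and M phase. An M-phase RAD21 peak of 51 tags at chr8:95342938-95344309 (FDR 0.51%) overlapped no other peak.

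At CDH1, a window of 200 kb, HNF4A had its most S-phase peaks of any window. Per 100 kb it had 5.00 here, fewer than at VIL1 (5.83) and the keratins (6.43). Most of the CDH1 peaks of HNF4A were weak, and 2 of 10 were listed again. These were chr16:67383655-67385095 (76 S-phase and 13 M-phase tags) and chr16:67464668-67465928 (74 and 14). Their M-phase FDRs were 100%. The other 8 had 15 to 44 tags. KLF5 had 1 S-phase peak, of 19 tags. MYC was listed in both phases at chr16:67434455-67436201 (53 and 24 tags), where RAD21 (27 tags) and CTCF (15 tags) were listed in M phase alone. The stack with the most proteins, chr16:67327589-67330467, had HNF4A, MYC, RAD21 and CTCF in S phase but RAD21 and CTCF alone in M phase, each with at most 43 tags a peak. The strongest shared CTCF and RAD21 site, chr16:67295125-67296632, had 89 and 55 CTCF tags and 51 and 57 RAD21 tags.

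EPCAM had 3 sites shared by RAD21 and CTCF, and all 3 were listed for both proteins in both phases. CTCF had 119 and 37 tags at chr2:47403113-47404772, 55 and 26 at chr2:47415119-47416552 and 68 and 28 at chr2:47468531-47470016. RAD21 had 72 and 82, 34 and 66, and 34 and 59 tags there. The factors did not follow this pattern, as HNF4A was listed in both phases at 1 site, chr2:47440821-47442663, with 77 and 17 tags (M-phase FDR 100%). The stack with the most tags in which the factors met, chr2:47482657-47484827, had KLF5 (54 tags, rank 523), MYC (59 tags) and HNF4A (23 tags) in S phase and no peak in M phase. A stack of HNF4A, MYC and RAD21 at chr2:47449107-47451170 was listed in M phase for KLF5 alone, with 10 tags and an FDR of 22.59%. An M-phase MYC peak of 14 tags at chr2:47425416-47426064 overlapped nothing from S phase.

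Over the 6 genes, S-phase HNF4A peaks were listed again in M phase in a larger share than over the whole list. KLF5 peaks were too, through the keratin window alone. MYC, RAD21 and CTCF peaks were listed again in shares close to those of their lists. A peak counts as kept where an M-phase peak of the same protein overlapped it by at least 1 bp. HNF4A kept 12 of 36 peaks, 33.3% (exact Clopper-Pearson interval 18.6 to 51.0%), beside 12.3% of its list. KLF5 kept 6 of 13, 46.2% (19.2 to 74.9%), beside 11.4%, but all 6 lay in the keratin window and 0 of 7 were kept elsewhere. MYC kept 4 of 26, 15.4% (4.36 to 34.9%), beside 12.6%. RAD21 kept 19 of 27, 70.4% (49.8 to 86.2%), beside 69.7%, and CTCF 17 of 24, 70.8% (48.9 to 87.4%), beside 69.4%. H3 kept 0 of 3, beside 2.83%. HNF4A kept 3 of 7 peaks at VIL1, 3 of 5 at CDH17, 1 of 5 at EPCAM, 2 of 10 at CDH1 and 3 of 9 at the keratins, so its share did not rest on the keratin window (9 of 27 without it). With a reciprocal overlap of 50% required, HNF4A kept 2 of 36 (5.56%, beside 6.68% of its list). M-phase HNF4A peaks of the windows were narrower, with a median of 770 bp against 1296 bp in S phase.

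**Figure D3:**
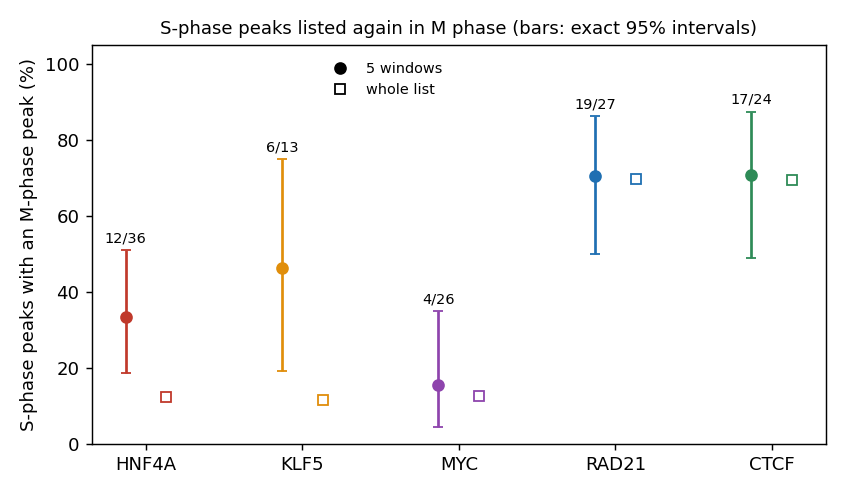
Share of S-phase peaks with an M-phase peak of the same protein (vertical axis, percent) in the 5 windows (circles, with exact 95% intervals and counts) and over the whole list (squares). The list's share lies below the interval for HNF4A and KLF5 and inside it for MYC, RAD21 and CTCF. The intervals treat peaks as independent and cover counting error only, so they do not measure spread over genes or libraries. All kept KLF5 peaks lay in the keratin window.

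Seen from M phase, no HNF4A peak at these genes was without S-phase HNF4A. All 15 M-phase HNF4A peaks overlapped an S-phase one, beside 79.9% of the list. For KLF5 it was 6 of 10, beside 32.3%, and for MYC 4 of 5, beside 76.3%. For CTCF it was 17 of 19, beside 82.8%, and for RAD21 19 of 26, beside 82.0%. The 7 RAD21 peaks of M phase alone lay at CDH17 (3), the keratins (2), VIL1 (1) and CDH1 (1), with 22 to 72 tags. Of these, 5 overlapped an S-phase HNF4A, KLF5 or MYC peak, beside 24.4% of all such RAD21 peaks. Their FDRs were 0.10, 5.38, 6.03, 10.13 and 10.94%, and those of the remaining peaks 0.05 and 0.51%. With no S-phase RAD21 peak within 1000 bp required, 5 RAD21 peaks in place of 7 were of M phase alone. S-phase factor peaks were also 7.68 to 8.22 times as dense in the windows as over the genome. The part of that density in this overlap was not tested.

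Kept HNF4A peaks were the strong ones. Ranked by score in its own list, HNF4A had 9 of 36 S-phase members in the strongest 10%, KLF5 7 of 13, RAD21 8 of 27, CTCF 6 of 24 and MYC 2 of 26, beside 10.0% for each list by construction. Ranked by fold enrichment, the counts were 5 for HNF4A, 3 for KLF5, 4 for RAD21 and 1 for MYC. All 9 HNF4A members that ranked in the strongest 10% by score were kept, beside 63.4% of the strongest 10% over the list. With each list cut into 3 equal groups by score, HNF4A kept 12 of 17 members of the strongest group, beside 32.0%, and none of the 19 below it. KLF5 kept 5 of 7 in the strongest 10%, beside 43.3%, and 5 of 9 in the strongest of the 3 groups, beside 23.9%. Both KLF5 members of the strongest 10% that were not kept, at VIL1 and EPCAM, lay outside the keratin window.

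**Figure D4:**
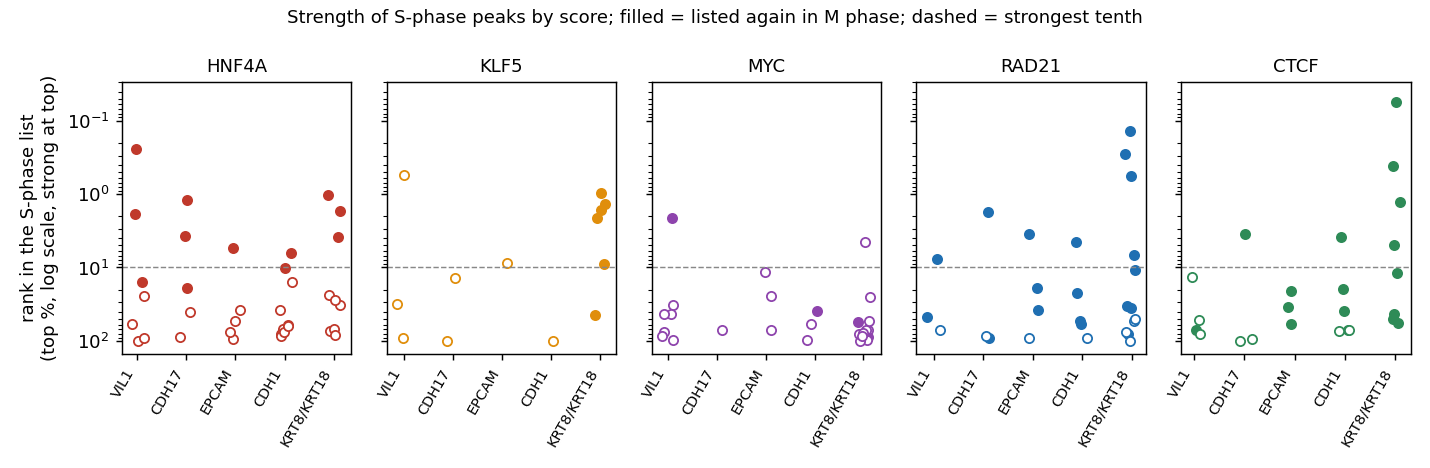
Rank of each S-phase member by score as a percent of its list (vertical axis, log scale, strong peaks at the top), by window and protein; filled points were kept in M phase and the dashed line marks the strongest 10%. All HNF4A points above the line are filled, and the top KLF5 point, at VIL1 (rank 33), is open.

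At sites listed in both phases, the M-phase peaks held fewer tags per 1000000 library tags (CPM) than the S-phase peaks for every HNF4A, KLF5, MYC and CTCF site and for 15 of 19 RAD21 sites. The peaks were called separately in each phase and differed in width, so these ratios compare listed peaks and not a fixed stretch of DNA. The M-phase to S-phase ratio had a median of 0.220 for HNF4A (range 0.124 to 0.289 over 12 sites; 0.276 over its whole list). The highest HNF4A ratio was at CDH17 (0.289, counting interval 0.204 to 0.402) and the lowest at CDH1 (0.124, 0.0631 to 0.225). The median was 0.250 for MYC (0.0881 to 0.294 over 4 sites; list 0.287) and 0.230 for CTCF (0.146 to 0.442 over 17 sites; list 0.329). KLF5 had a median of 0.595 (0.171 to 0.764 over 6 sites; list 0.514) and RAD21 of 0.692 (0.456 to 1.17 over 19 sites; list 0.747). Per kb of peak, HNF4A had a median ratio of 0.414 (list 0.547), CTCF one of 0.413 (list 0.547), KLF5 0.850 (list 0.997), MYC 0.451 (list 0.448) and RAD21 0.673 (list 0.650). On this scale 1 KLF5 site, chr12:51649801-51651081, had a ratio of 1.05, and HNF4A reached 0.855 at VIL1 (chr2:218990403-218993023) and 0.837 at CDH17 (chr8:95279438-95282351). HNF4A and CTCF members lay below their lists' medians on both scales, whereas for KLF5, MYC and RAD21 the side changed with the scale.

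The direction of these ratios depends on the scale. Set against the tags inside all peaks of a list, in place of the whole library, the medians were 2.89 for HNF4A, 2.93 for KLF5, 3.23 for MYC and 1.04 for RAD21, above 1, and 0.802 for CTCF. Over the whole lists they were 3.63, 2.53, 3.71 and 1.12, and 1.14 for CTCF. The reversal was thus found over the lists and was not particular to these genes. A lower amount of protein at a site and a lower efficiency of the M-phase precipitation cannot be told apart here.

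**Figure D5:**
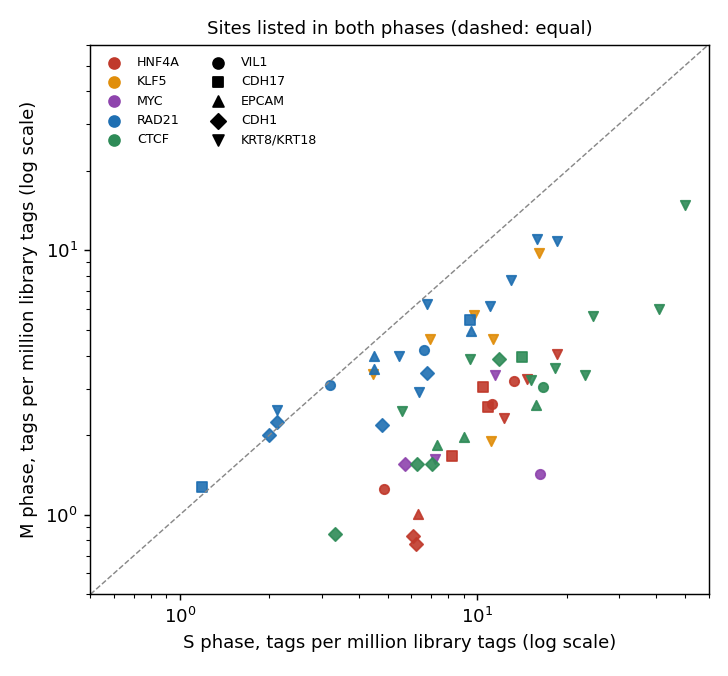
Tags per 1000000 library tags in S phase (horizontal axis) and M phase (vertical axis), both on log scales, for each site listed in both phases, coloured by protein and shaped by window; the dashed line marks equal values. HNF4A, KLF5, MYC and CTCF points all lie below the line, and 4 of 19 RAD21 points lie on or above it.

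Stacks of several proteins were more frequent in the windows than over the genome in either phase. Peaks of the 5 proteins were chained into clusters where gaps were at most 1000 bp. In S phase 16 of 54 clusters (29.6%) held 3 or more proteins, beside 12.4% of 48815 clusters over the genome. These were 7 of 16 clusters at the keratins, 4 of 9 at VIL1, 2 of 8 at EPCAM, 2 of 14 at CDH1 and 1 of 7 at CDH17. All 5 proteins met in 4 clusters (7.41%, beside 1.13%), 2 at VIL1 and 2 at the keratins. In M phase 4 of 39 clusters (10.3%) held 3 or more proteins, beside 2.08%, with 3 of 13 at the keratins and 1 of 7 at CDH1. VIL1, CDH17 and EPCAM had none among their 7, 6 and 6 clusters. The peaks of the keratin window were also wide, as given above, and the part of width in the stacking was not tested.

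KLF5 and MYC peaks at these genes overlapped RAD21 or CTCF in larger shares than over their lists, and HNF4A peaks in a share close to that of its list. In S phase this held for 8 of 13 KLF5 peaks (beside 37.7%), 15 of 26 MYC peaks (beside 38.1%) and 10 of 36 HNF4A peaks (beside 23.5%). Most of the 12 MYC peaks in the keratin window had such an overlap. Most of the 14 in the other windows had none, as was the case for most MYC peaks over the list. The larger share for MYC thus came mainly from the keratin window. The keratin MYC peaks were also wide, with a median of 2225 bp against 1354 bp over the list. The part of width in these overlaps was not tested. RAD21 overlapped CTCF at 20 of 27 S-phase peaks (beside 76.2%) and 16 of 26 M-phase peaks (beside 71.4%). S-phase RAD21 peaks with CTCF were kept in 17 of 20 cases (beside 81.2%), and those without CTCF in 2 of 7 (beside 33.0%). At these genes as over the list, then, RAD21 peaks with CTCF had an M-phase RAD21 peak in a larger share of cases than those without. The 3 RAD21 and CTCF pairs at EPCAM are examples of the former. In the keratin window the S-phase RAD21 peaks of 40 and 31 tags overlapped CTCF and were not kept. The S-phase RAD21 peaks of 22 and 28 tags at chr12:51625420-51626624 and chr12:51629440-51630557 had no CTCF and were not kept.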

How the data were processed

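Peaks were measured by ChIP-seq in 12 libraries, and 4 IgG libraries were controls. Per the submitters' processing notes, the authors used CASAVA 1.4, BWA, the build hg18 and MACS 1.4 (1.4.0rc2 per the file headers), with a p-value cutoff of 1e-05 against IgG. Each deposited peak has a raw tag count. Its deposited score is the negative log10 of the MACS p-value times 10, so higher is stronger, and its deposited fold enrichment is a ratio over the local background. The deposited FDR is a percent. All listed peaks were used. Samples were grouped by target and phase from the titles.

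Members were rows overlapping the windows by at least 1 bp, found with pandas 2.3.3 and numpy 2.4.6 in Python 3.11.15. Intervals came from scipy 1.17.1 and figures from matplotlib 3.10.9. Tags per 1000000 library tags (CPM) used the filtered tags in the headers. Shares have Clopper-Pearson intervals and tag ratios binomial ones. The overlap step was tested on simulated data. Single peaks named were, by rule, the strongest S-phase peak of each protein in each window, every M-phase factor peak, the cluster with the most proteins and every H3 peak. Other named peaks were chosen after their values were seen. Members and lists were chosen with earlier results of these data known. A list of further epithelial genes was not analysed here, since it needs an hg18 annotation. Alternatives varied the overlap, score, FDR, window, H3 overlap, scaling, cluster gap and ranking.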

Additional observations from a re-analysis of the deposited data

How the results depend on the processing

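Of 104 alternative values, 74 stayed within the interval or 1.5 times of the value reported, 26 moved further and 4 reversed. With an FDR under 5%, kept shares were 0% for HNF4A and 0% for MYC (0% and 0.729% of their lists), 15.4% for KLF5 (list 5.16%) and 47.4% for CTCF (list 40.1%), and M-phase peaks numbered 0 for HNF4A, 3 for KLF5, 0 for MYC and 9 for CTCF. With a score of at least 100, MYC kept 0% (list 6.65%), and peaks numbered 20 (HNF4A, S), 5 (HNF4A, M), 2 (KLF5, M), 11 (MYC, S) and 0 (MYC, M). The HNF4A share was 5.56% with a reciprocal overlap of 50%. The KLF5 share was 15.4% with summits within 100 bp (list 5.68%) and 0% without the keratin window, an alternative chosen after seeing the data. With no S-phase peak within 1000 bp required, 2 KLF5 peaks were of M phase alone in place of 4. Scaled to the tags inside all peaks, median M-phase to S-phase tag ratios reversed to 2.89 (HNF4A), 2.93 (KLF5), 3.23 (MYC) and 1.04 (RAD21), and that of CTCF moved to 0.802. On this scale the medians of the whole lists were above 1 for all 5 proteins, CTCF included (1.14). Per kb of peak the medians in the windows were 0.414 (HNF4A), 0.451 (MYC) and 0.413 (CTCF). By fold enrichment, the strongest 10% held 5 HNF4A, 3 KLF5, 1 MYC and 4 RAD21 members. The cause of these moves was not tested. A site without an M-phase peak is one where none passed the caller's cutoff. What depth contributed was not tested, and of the 5 proteins KLF5 alone had an M-phase library shallower than that of S phase (0.712 times). No paired analysis was possible because each protein had 1 library in each phase.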
